A study of Hyphopichia burtonii and Hyphopichia pseudoburtonii with 16 samples.

Results

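The genes RHR2 and GPD encode the pair of enzymes that turn a glycolytic intermediate into glycerol. They were followed through a salt shift in the yeasts Hyphopichia pseudoburtonii and Hyphopichia burtonii. Members were taken by annotation: every gene named RHR2, and every gene named GPD whose description begins with glycerol-3-phosphate dehydrogenase. This gave 8 of the 12015 genes in both tables, 4 of 5900 in H. pseudoburtonii and 4 of 6115 in H. burtonii, with 2 RHR2 and 2 GPD genes in each species. The genes also named GPD but described as glyceraldehyde-3-phosphate dehydrogenase, 1 in H. pseudoburtonii and 2 in H. burtonii, are a different, glycolytic enzyme and were not members.

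The libraries came from wild-type H. pseudoburtonii strain KJS14 and wild-type H. burtonii strain KJJ43, both isolated from Nuruk, a Korean fermentation starter. Cells grew in YPD, a rich glucose medium, to an OD600 of 2.0 and were harvested (0 min). The same volume of YPD holding 2 M NaCl was then added, which gives 1 M NaCl, and cells were harvested again 5, 15 and 30 min later, with 2 libraries per species and time and 16 in all. No course with medium alone is present, so salt and fresh medium cannot be told apart, and each species is represented by 1 strain. The labels do not say that the paired libraries are from independent cultures, and p-values therefore measure only the spread between libraries, which may be technical.

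Many yeasts hold water against outside salt by building up glycerol inside the cell. Glycerol-3-phosphate dehydrogenase (GPD) reduces dihydroxyacetone phosphate, taken from glycolysis, to glycerol 3-phosphate with NADH. Glycerol-1-phosphate phosphohydrolase, the product of RHR2, then removes the phosphate to leave glycerol. In Saccharomyces cerevisiae the Hog1 kinase raises transcription of genes for both steps under osmotic stress, and both exist there as a pair of isoenzymes.

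Levels are the authors' FPKM, which count sequenced fragments scaled to gene length and to the mapped total of the library. They are relative to the RNA sequenced from a library, so a change in total RNA per cell is not seen, and in bulk samples fewer cells with a transcript and less of it per cell cannot be told apart. FPKM summed to between 1259069 and 1498017 per library, and read counts were not given. Relative depth, a rough estimate from the smallest FPKM values multiplied by gene length, was between 0.265 and 1 within H. pseudoburtonii, where the 0 min libraries were the deepest (0.960 and 1), and between 0.466 and 1 within H. burtonii, where the 0 min libraries were the shallowest (0.540 and 0.466). Log2 values of replicates correlated across genes at r between 0.918 and 0.979 in H. pseudoburtonii and between 0.955 and 0.989 in H. burtonii. Actin (ACT1), a common level check, was not called at 5, 15 or 30 min in either species, with log2 changes of -0.03, -0.10 and -0.35 in H. pseudoburtonii and -0.31, -0.40 and -0.21 in H. burtonii. A change was called where limma's Benjamini-Hochberg adjusted p over all tested genes of a species was under 0.05, and all changes are on the log2(FPKM + 1) scale. The median change of all genes was 0.12, 0.10 and 0.39 in H. pseudoburtonii and 0.07, 0.39 and 0.56 in H. burtonii at 5, 15 and 30 min, and some changes are also given relative to it.

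Each of the 4 members of one species had a counterpart at the same chromosomal neighbourhood in the other. One RHR2 gene lay next to UTP8 and RPL25 in both species. It is TBIG000989 in H. pseudoburtonii (chromosome 1, 2560845 to 2561606, plus strand) and TBIG004428 in H. burtonii (chromosome 5, 889020 to 889781, plus strand), and spans 762 bases in each. The other RHR2 gene lay next to a gene named YD132_YEAST. It is TBIG003552 in H. pseudoburtonii (chromosome 4, 1808433 to 1809224, minus strand, 792 bases) and TBIG004344 in H. burtonii (chromosome 5, 718819 to 719604, minus strand, 786 bases). One GPD gene lay next to PCD1. It is TBIG004673 in H. pseudoburtonii (chromosome 6, 698296 to 699408, minus strand) and TBIG000228 in H. burtonii (chromosome 1, 455912 to 457024, minus strand), with 1113 bases in each. The other GPD gene lay between SET2 and MET32. It is TBIG002496 in H. pseudoburtonii (chromosome 3, 1086729 to 1087901, minus strand) and TBIG005904 in H. burtonii (chromosome 8, 519766 to 520938, plus strand), with 1173 bases in each. Of the named genes among the 5 on either side, 6 were shared between the species for each RHR2 gene and for GPD beside PCD1, and 5 for GPD beside SET2. Both GPD pairs also share their Swiss-Prot match within the pair (Q7ZA43 beside PCD1, Q4PNS1 beside SET2), while all 4 RHR2 genes match 1 Swiss-Prot entry, P41277. Gene IDs are reused between the tables for unrelated genes, no genome build is named in the labels, and how reads shared by copies of a gene were divided is not stated.

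The GPD gene beside PCD1, for the first step of the pathway, was the more abundant GPD gene in all 16 libraries and rose in both species, with a different course. In H. pseudoburtonii (TBIG004673) it had 470.1 and 329.8 FPKM at 0 min, 279.9 and 327.5 at 5 min, 964 and 1123 at 15 min, and 2252 and 2218 at 30 min. The 15 and 30 min libraries lay above both 0 min libraries, and the 30 min libraries above both 15 min ones. In H. burtonii (TBIG000228) it had 1769 and 1906 FPKM at 0 min, 3979 and 4016 at 5 min, 7312 and 5188 at 15 min, and 4110.4 and 5175 at 30 min. All 6 later H. burtonii libraries lay above both 0 min libraries, and the 30 min libraries did not lie above the 15 min ones.

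Against 0 min, the H. pseudoburtonii gene (TBIG004673) was not called at 5 min (-0.38, SE 0.20, adjusted p = 0.287), and rose by 1.40 at 15 min (SE 0.20, adjusted p = 0.00368) and by 2.50 at 30 min (SE 0.20, adjusted p = 0.000186). That is a mean of 2235 ± 24.3 FPKM at 30 min, against 400.0 ± 99.2 at 0 min (SD, n = 2 each). Its H. burtonii counterpart (TBIG000228) had already risen by 1.12 at 5 min (SE 0.21, adjusted p = 0.0115) and was higher by 1.75 at 15 min (SE 0.21, adjusted p = 0.00131) and by 1.33 at 30 min (SE 0.21, adjusted p = 0.00185). The 5 min call was lost without 5 min replicate 1 or 2 (1.13 and 1.12). Relative to the median of all genes the 30 min changes were 2.11 in H. pseudoburtonii and 0.77 in H. burtonii.

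The GPD gene beside SET2 lay between 139 and 303 FPKM in the H. pseudoburtonii libraries and between 636 and 1004 FPKM in those of H. burtonii. In H. pseudoburtonii (TBIG002496) it had 221 and 236 FPKM at 0 min, 177 and 139 at 5 min, 139 and 144 at 15 min, and 282 and 303 at 30 min. The values of 5 and 15 min lay below both 0 min libraries and those of 30 min above them. In H. burtonii (TBIG005904) it had 892 and 637 FPKM at 0 min, 964 and 1004 at 5 min, 910.2 and 752 at 15 min, and 636 and 712 at 30 min, and the 15 and 30 min libraries overlapped with those of 0 min.

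The sole call against 0 min for this gene was a fall in H. pseudoburtonii at 15 min (TBIG002496, -0.69, SE 0.17, adjusted p = 0.0310). It was lost without any of 6 of the 8 libraries (-0.74 to -0.64), with a replicate block (-0.69) and with quantile scaling (-0.57). It was not called at 5 min (-0.54, SE 0.17, adjusted p = 0.0951), except with median-ratio scaling (-0.67), or at 30 min (0.35, SE 0.17, adjusted p = 0.145), where median-ratio scaling turned it to -0.05. The H. burtonii gene (TBIG005904) was not called at 5 min (0.38), 15 min (0.13) or 30 min (-0.16), with 95% intervals of -0.08 to 0.85, -0.33 to 0.60 and -0.63 to 0.30, and its sign at 15 and 30 min turned with single libraries or another scaling.

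**Figure D1:**
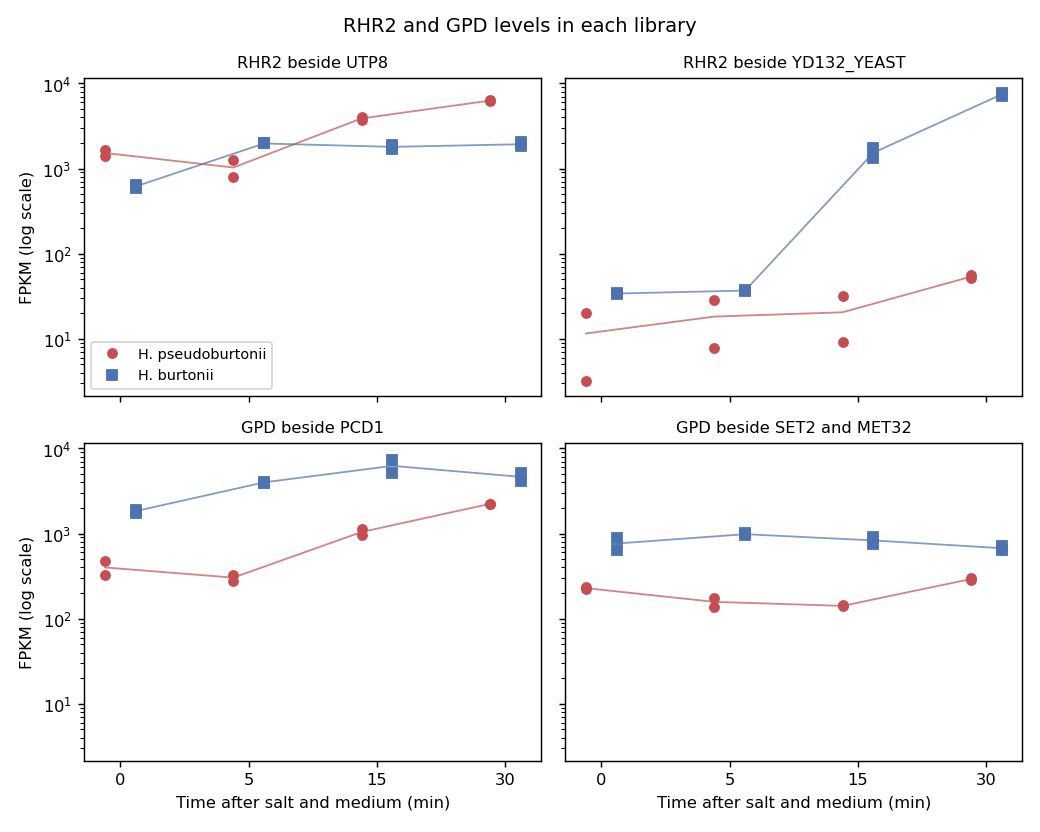
FPKM on a log axis in each library at 0, 5, 15 and 30 min for the RHR2 gene beside UTP8, the RHR2 gene beside YD132_YEAST, the GPD gene beside PCD1 and the GPD gene beside SET2, with H. pseudoburtonii as circles, H. burtonii as squares and lines through the means of 2 libraries. The RHR2 gene beside YD132_YEAST lies at 51.8 and 55.5 FPKM in H. pseudoburtonii and at 7125 and 7753 FPKM in H. burtonii at 30 min.

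The RHR2 gene beside UTP8 encodes the second enzyme, the glycerol phosphatase, and it rose in both species, by 5 min in H. burtonii and by 15 min in H. pseudoburtonii. In H. pseudoburtonii (TBIG000989) it had 1648 and 1402 FPKM at 0 min, 798 and 1258 at 5 min, 3689.7 and 4075 at 15 min, and 6309.6 and 6268 at 30 min. Both 5 min libraries lay below both 0 min libraries, and the later harvests did not overlap with either. In H. burtonii (TBIG004428) it had 588 and 646 FPKM at 0 min, 1972 and 1972 at 5 min, 1912 and 1685 at 15 min, and 2035 and 1827 at 30 min. The 6 later H. burtonii libraries all lay between 1685 and 2035 FPKM.

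In H. pseudoburtonii the RHR2 gene beside UTP8 (TBIG000989) lay at -0.60 at 5 min and was not called (SE 0.22, adjusted p = 0.139), although without 5 min replicate 2 it was called lower (-0.93, adjusted p = 0.0306). It rose by 1.35 at 15 min (SE 0.22, adjusted p = 0.00666), a call lost without 0 min replicate 2 (1.23, adjusted p = 0.0660), and by 2.05 at 30 min (SE 0.22, adjusted p = 0.000638). In H. burtonii its counterpart (TBIG004428) rose by 1.68 at 5 min (SE 0.15, adjusted p = 0.000804), 1.54 at 15 min (SE 0.15, adjusted p = 0.000608) and 1.64 at 30 min (SE 0.15, adjusted p = 0.000192). These H. burtonii calls were kept with each of the 8 libraries left out in turn.

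The RHR2 gene beside YD132_YEAST rose in H. burtonii and was not called in H. pseudoburtonii, where its level was low. In H. pseudoburtonii (TBIG003552) it had 3.16 and 19.9 FPKM at 0 min, 28.8 and 7.69 at 5 min, 31.8 and 9.13 at 15 min, and 51.8 and 55.5 at 30 min. The libraries of 0, 5 and 15 min overlapped, and those of 30 min lay above all 6 of them. By the rough depth estimate these values correspond to between 2.84 and 25.5 fragments per library, so they are imprecise. In H. burtonii (TBIG004344) it had 33.2 and 34.8 FPKM at 0 min, 37.4 and 36.3 at 5 min, 1736 and 1337 at 15 min, and 7125 and 7753 at 30 min. Each H. burtonii harvest from 15 min on lay far above the one before it, and it was then 19th of all 6115 genes by level in both 30 min libraries, against ranks 2667 and 2738 in the 0 min libraries.

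The H. burtonii gene (TBIG004344) was not called at 5 min (0.11, SE 0.17, 95% interval -0.29 to 0.51) and rose by 5.44 at 15 min (SE 0.17, adjusted p = 3.70e-06) and by 7.73 at 30 min (SE 0.17, adjusted p = 4.97e-07). The 30 min change is 212-fold on the scale of FPKM + 1 and the second highest of the 6047 tested genes. In H. pseudoburtonii (TBIG003552) the changes were 0.79 at 5 min (SE 0.90, adjusted p = 0.643), 0.97 at 15 min (SE 0.90, adjusted p = 0.512) and 2.55 at 30 min (SE 0.90, adjusted p = 0.0605), none of them called. The 30 min change had a 95% interval of 0.45 to 4.65. It was called without 0 min replicate 2 (3.71), without either 15 min library (2.55 each) and with a pseudocount of 10 (1.68), and without 0 min replicate 1 it was 1.38. Leaving out 0 min replicate 1 turned the 5 and 15 min changes below 0 (-0.38 and -0.20).

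**Figure D2:**
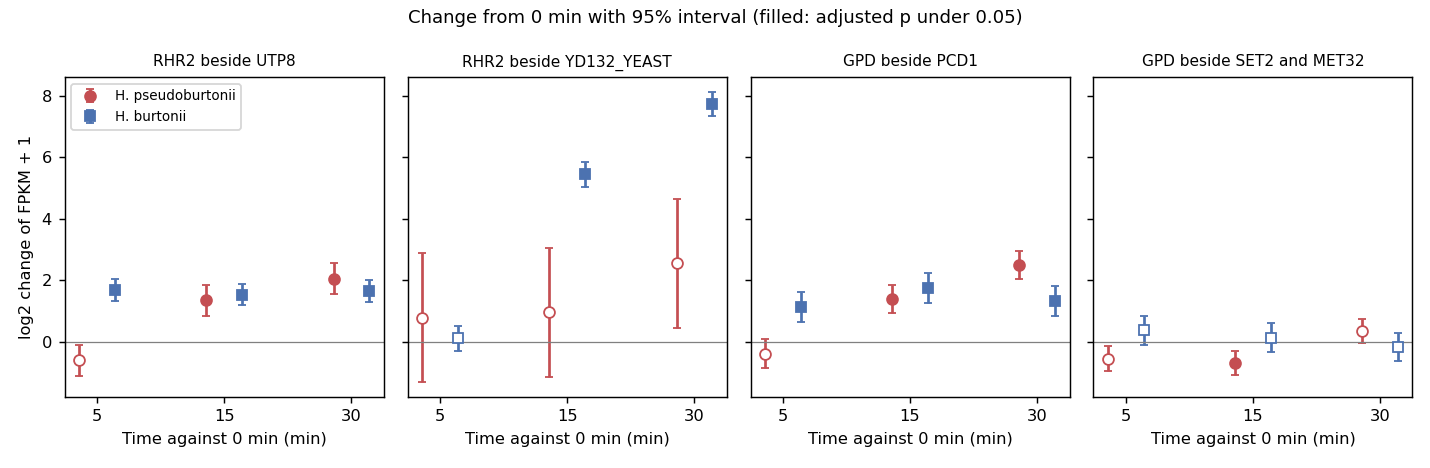
Log2 change of FPKM + 1 from 0 min with its 95% interval (limma) at 5, 15 and 30 min for each of the 4 gene pairs, H. pseudoburtonii as circles left of H. burtonii as squares, with filled symbols for adjusted p under 0.05. The RHR2 gene beside YD132_YEAST stands at 2.55 in H. pseudoburtonii and 7.73 in H. burtonii at 30 min, while the other RHR2 gene stands at 2.05 and 1.64.

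Counted over members in limma's test, in H. pseudoburtonii 0 of 4 were called at 5 min (2 at an unadjusted p under 0.05), when 8.73 percent of all tested genes were called, 4.17 percent higher and 4.55 percent lower. At 15 min 2 were called higher and 1 lower, when 17.7 percent of all genes were called, 9.9 percent higher and 7.8 percent lower. At 30 min 2 were called higher, when 35.4 percent of all genes were called, 25.8 percent higher and 9.69 percent lower. In H. burtonii 2 of 4 were called higher at 5 min, when 22.3 percent of all genes were called, 11.2 percent higher and 11.1 percent lower. At 15 min 3 were called higher, when 29.7 percent of all genes were called, 22.8 percent higher and 6.93 percent lower, and at 30 min 3 again, when 48.1 percent were called, 37 percent higher and 11.1 percent lower. The share of all genes called at 30 min is large, and a count of 2 or 3 of 4 members is read against it. With median-ratio scaling it was split into 882 higher and 989 lower genes in H. pseudoburtonii, against 1493 and 562 as deposited, and 1022 higher and 1093 lower in H. burtonii, against 2236 and 671. All 8 members passed the filter on low values. Under median-ratio and quantile scaling and pseudocounts of 0.1 and 10, every member called at 30 min against 0 min in either species was called again in the same direction.

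**Figure D3:**
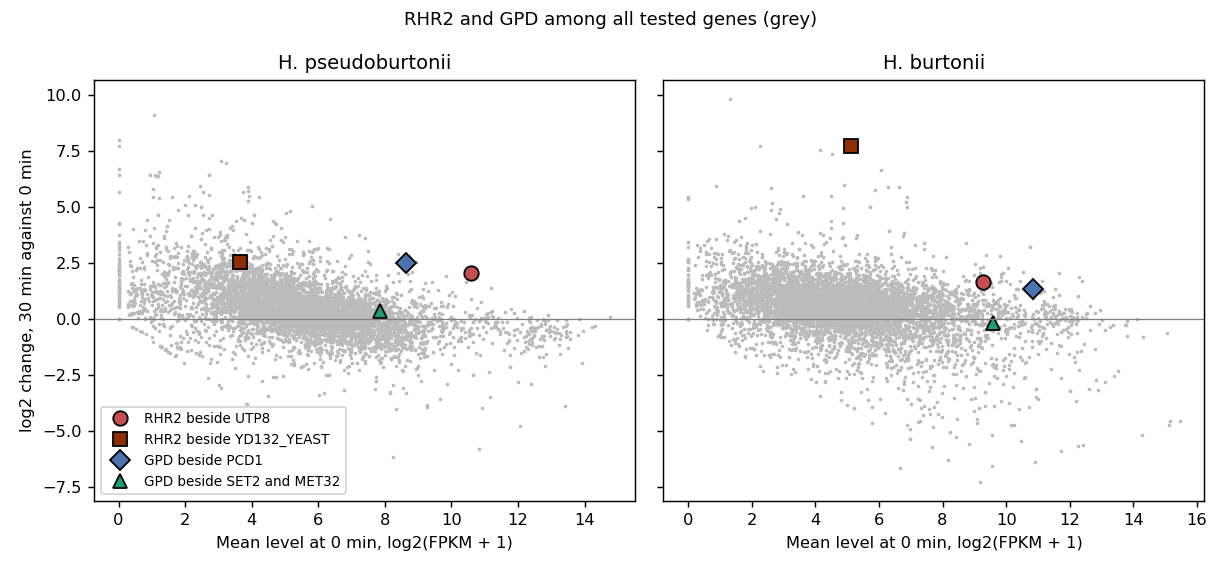
Mean level at 0 min, as log2(FPKM + 1), against the log2 change at 30 min for all tested genes (grey points) in H. pseudoburtonii (left) and H. burtonii (right), with RHR2 and GPD marked. In H. burtonii the RHR2 gene beside YD132_YEAST is near the top edge at 7.73, while in H. pseudoburtonii it lies at 2.55 and at a low level at 0 min.

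Between successive harvests, 2 members of H. pseudoburtonii were called in each step after 5 min. At 15 against 5 min the RHR2 gene beside UTP8 (TBIG000989) rose by 1.95 (SE 0.22, adjusted p = 0.00541) and the GPD gene beside PCD1 (TBIG004673) by 1.78 (SE 0.20, adjusted p = 0.00541), which is 2 of 4 members, when 4.78 percent of all tested genes were called and 3.05 percent called higher. At 30 against 15 min GPD beside PCD1 rose by 1.10 (SE 0.20, adjusted p = 0.0164) and GPD beside SET2 (TBIG002496) by 1.04 (SE 0.17, adjusted p = 0.0127), when 14.3 percent of genes were called and 11 percent called higher. Without either 30 min library both calls were lost (1.09 and 1.11 beside PCD1, 1.09 and 0.99 beside SET2), and the first also without 15 min replicate 1 (0.99). RHR2 beside UTP8 was at 0.70 in that step and was not called (SE 0.22, adjusted p = 0.0687), except with quantile scaling (1.14) or without either 5 min library (0.70).

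In H. burtonii the RHR2 gene beside YD132_YEAST (TBIG004344) was the 1 member called in each later step. It rose by 5.33 at 15 against 5 min (SE 0.17, adjusted p = 1.30e-05), when 20.1 percent of tested genes were called and 16.1 percent called higher, and by 2.29 at 30 against 15 min (SE 0.17, adjusted p = 0.000338), when 16.2 percent were called and 9.49 percent called higher. RHR2 beside UTP8 (TBIG004428) lay at -0.14 and 0.10 in these steps and was not called (95% intervals -0.49 to 0.22 and -0.25 to 0.46). GPD beside PCD1 (TBIG000228) lay at 0.62 (SE 0.21, adjusted p = 0.0709) and -0.42 (SE 0.21, adjusted p = 0.219), not called, and the first was called without 15 min replicate 2 or with quantile scaling (0.87 each).

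The make-up of the RHR2 transcript pool differed most between the species at 15 and 30 min, as values within each library. In H. pseudoburtonii the gene beside YD132_YEAST gave between 0.192 and 3.48 percent of the summed RHR2 FPKM in all 8 libraries. Its 0 min shares there, 0.192 and 1.40 percent, lay below those of H. burtonii. In H. burtonii it gave 5.35 and 5.11 percent at 0 min, 1.86 and 1.81 at 5 min, 47.6 and 44.2 at 15 min, and 77.8 and 80.9 at 30 min. The copy of RHR2 with most of the FPKM was thus the one beside UTP8 in every library except the 2 of H. burtonii at 30 min. The GPD pool leaned further to the same gene at 30 min than at 0 min in both species. The gene beside PCD1 gave 68.0 and 58.3 percent of summed GPD FPKM at 0 min and 88.9 and 88.0 at 30 min in H. pseudoburtonii, and 66.5 and 74.9 percent at 0 min and 86.6 and 87.9 at 30 min in H. burtonii.

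Set in order by FPKM, which is per length, RHR2 beside UTP8 led in H. pseudoburtonii at 0 min (1525 ± 174), followed by GPD beside PCD1 (400.0 ± 99.2), GPD beside SET2 (229 ± 10.8) and RHR2 beside YD132_YEAST (11.5 ± 11.9; SD, n = 2 each). At 30 min that order was the same, with 6289 ± 29.5, 2235 ± 24.3, 292 ± 15.1 and 53.7 ± 2.64 FPKM, and no neighbours in it overlapped. In H. burtonii at 0 min GPD beside PCD1 led (1837 ± 96.7), then GPD beside SET2 (765 ± 180.4), RHR2 beside UTP8 (617 ± 41.7) and RHR2 beside YD132_YEAST (34.0 ± 1.12), and SET2-side GPD and UTP8-side RHR2 overlapped. At 30 min in H. burtonii the order was RHR2 beside YD132_YEAST (7439 ± 444), GPD beside PCD1 (4643 ± 753), RHR2 beside UTP8 (1931 ± 147) and GPD beside SET2 (674 ± 53.8), with no overlap between neighbours.

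The balance between the steps also differed within libraries. Summed RHR2 over summed GPD FPKM was 2.39 and 2.51 at 0 min, 1.81 and 2.72 at 5 min, 3.37 and 3.22 at 15 min, and 2.51 and 2.51 at 30 min in H. pseudoburtonii. In H. burtonii it was 0.233 and 0.268 at 0 min, 0.406 and 0.400 at 5 min, 0.444 and 0.509 at 15 min, and 1.93 and 1.63 at 30 min. All 8 H. pseudoburtonii libraries had more summed RHR2 than GPD FPKM, and of the H. burtonii libraries only those of 30 min did. The tables of the species were made separately, so these ratios are set side by side and were not tested.

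**Figure D4:**
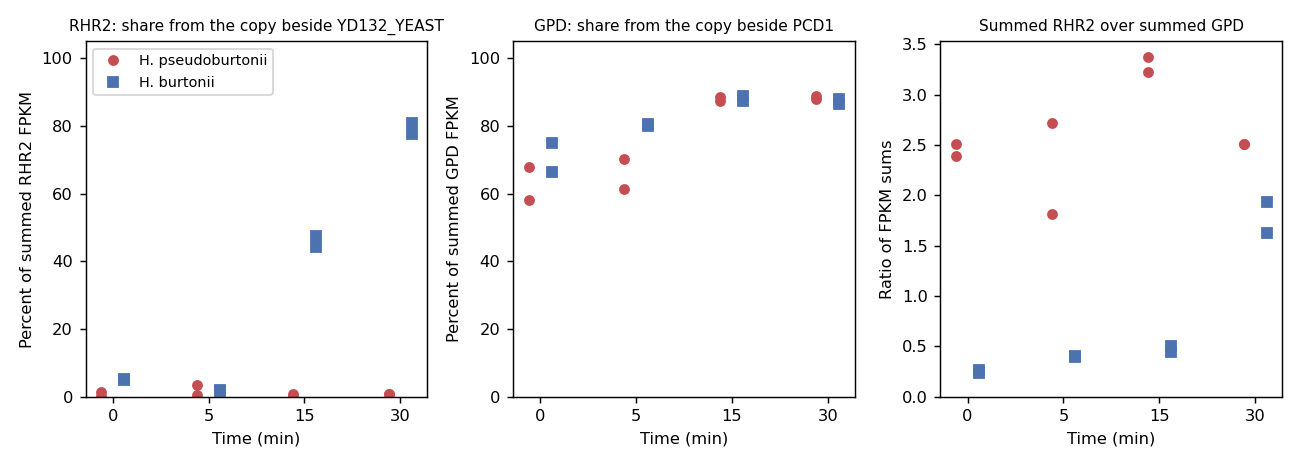
Share of summed RHR2 FPKM from the gene beside YD132_YEAST (left, percent), share of summed GPD FPKM from the gene beside PCD1 (middle, percent) and summed RHR2 over summed GPD FPKM (right, ratio) in each library by time in min, H. pseudoburtonii as circles and H. burtonii as squares. The left share reaches 77.8 and 80.9 percent in H. burtonii and stays at or below 3.48 percent in H. pseudoburtonii.

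Whether the species changed differently was tested by subtracting the H. burtonii change from 0 min from the H. pseudoburtonii change, which compares 1 strain of each in separate library series. With the copies of a name summed, RHR2 changed by -0.58, 1.35 and 2.05 in H. pseudoburtonii and by 1.63, 2.35 and 3.85 in H. burtonii at 5, 15 and 30 min. The differences were -2.21 (SE 0.27, adjusted p = 0.000214), -1.003 (SE 0.27, adjusted p = 0.0187) and -1.80 (SE 0.27, adjusted p = 0.000294), all called by limma's interaction contrast, when 17.7, 23 and 38.8 percent of all names were called. The 15 min difference was not called with median-ratio scaling (-0.75), with quantile scaling (-0.77) or without H. pseudoburtonii 0 min replicate 1 (-0.90), H. pseudoburtonii 15 min replicate 1 (-0.94), H. burtonii 0 min replicate 1 (-0.94) or H. burtonii 15 min replicate 1 (-0.87).

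Summed GPD changed by -0.44, 0.92 and 2.01 in H. pseudoburtonii and by 0.94, 1.43 and 1.02 in H. burtonii at the same times. Its difference was called at 5 min (-1.38, SE 0.25, adjusted p = 0.00332) and, with the opposite sign, at 30 min (0.99, SE 0.25, adjusted p = 0.00894). At 15 min it was not called (-0.51, SE 0.25, adjusted p = 0.170, 95% interval -1.06 to 0.04). Relative to the median difference of all names (0.06, -0.32 and -0.25 at 5, 15 and 30 min) the summed GPD differences were -1.43, -0.19 and 1.24, and those of RHR2 -2.27, -0.68 and -1.55.

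Gene by gene, with counterparts paired by neighbourhood, the differences separated by copy. For RHR2 beside UTP8 the difference was called at 5 min (-2.28, SE 0.28, adjusted p = 0.000350), where 15.5 percent of all pairs were called. At 15 and 30 min it was -0.19 (95% interval -0.80 to 0.42) and 0.40 (-0.20 to 1.01), not called, and median-ratio and quantile scaling turned the first above 0 (0.06 and 0.03). With quantile scaling the 30 min value was 0.94 and was called. For RHR2 beside YD132_YEAST the difference was -4.48 at 15 min (SE 1.00, adjusted p = 0.00880; 20.8 percent of pairs called) and -5.18 at 30 min (SE 1.00, adjusted p = 0.00177; 36.4 percent called), the second lowest of 3356 pairs at 30 min. Without each of the 16 libraries in turn the 30 min difference was called every time, between -6.35 and -4.02. At 5 min it was 0.67 and not called (95% interval -1.49 to 2.84).

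For GPD beside PCD1 the difference was -1.50 at 5 min (SE 0.30, adjusted p = 0.00622), -0.35 at 15 min (SE 0.30, adjusted p = 0.439) and 1.17 at 30 min (SE 0.30, adjusted p = 0.00935), the last of which was not called without H. pseudoburtonii 0 min replicate 2 (0.92, adjusted p = 0.0507). For GPD beside SET2 it was -0.93 at 5 min (SE 0.27, adjusted p = 0.0369) and -0.82 at 15 min (SE 0.27, adjusted p = 0.0497), calls lost without any of 10 and 13 of the 16 libraries, and the 15 min call also with a replicate block (-0.82), while quantile scaling lost both (-0.82 and -0.68). At 30 min it was 0.52 and not called (95% interval -0.07 to 1.11), except without H. burtonii 0 min replicate 2 (0.76).

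**Figure D5:**
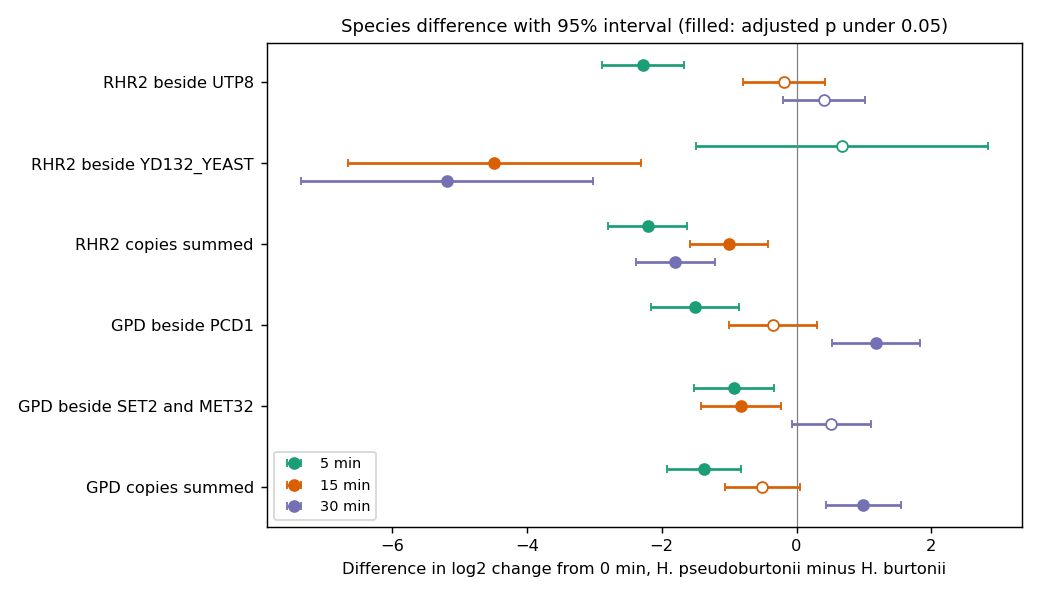
Difference in log2 change from 0 min, H. pseudoburtonii minus H. burtonii, with its 95% interval (limma) for single gene pairs and for summed copies at 5, 15 and 30 min, with filled symbols for adjusted p under 0.05. RHR2 beside YD132_YEAST lies at -5.18 at 30 min, and RHR2 beside UTP8 departs from 0 at 5 min (-2.28).

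Genes with the most similar course were sought among genes averaging 10 FPKM or more (5160 in H. pseudoburtonii, 5036 in H. burtonii), by the root mean square difference over the 8 libraries in log2 level relative to the gene's own 0 min mean. For the H. burtonii RHR2 gene beside YD132_YEAST (TBIG004344) the nearest was PGA12 (TBIG003757), annotated as phosphomutase-like, at 0.31, with changes of -0.02, 4.99 and 7.73 at 5, 15 and 30 min. ARA1 (TBIG002950), annotated as an arabinose dehydrogenase, followed at 0.63 and the transketolase gene TKT (TBIG005019) at 0.65. For RHR2 beside UTP8 in H. burtonii (TBIG004428) they were the transporter gene SNQ2 (0.18), TPK2 (0.21), a catalytic subunit of protein kinase A, and NPA3 (0.22), annotated as a GTPase. For GPD beside PCD1 in H. burtonii (TBIG000228) they were an unnamed gene (TBIG005515, 0.23), kapC (0.23), annotated as a putative transcription factor, and vip1 (0.24).

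In H. pseudoburtonii the genes nearest to RHR2 beside UTP8 (TBIG000989) were the enolase gene ENO1 (TBIG003084, 0.30), an unnamed gene (TBIG005641, 0.31) and a further unnamed one (TBIG003684, 0.33). The gene TBIG005641 was also among the 3 nearest to GPD beside PCD1 (TBIG004673), at 0.26, beside TBIG000936 (0.22) and TBIG004713 (0.26), all without a name. GPD beside SET2 (TBIG002496) was followed most closely by UPC2 (TBIG003299), annotated as a sterol uptake control protein, at 0.04, then FLC2 (0.12) and an unnamed gene (TBIG004172, 0.13). These are distances over 8 libraries of 1 series each and were not tested.

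Of the 8 genes that flank the members in each species, 4 were called at 30 min in H. pseudoburtonii, all higher, and 3 in H. burtonii, 2 higher and 1 lower. Over all genes 35.4 percent were called at that time in H. pseudoburtonii and 48.1 percent in H. burtonii. In H. burtonii YD132_YEAST (TBIG004343) ends 91 bases from the end of the RHR2 gene (TBIG004344) on the opposite strand. It was called higher at 30 min (adjusted p = 0.0270), with a mean of 20.6 FPKM at 30 min against 5.46 at 0 min. In H. pseudoburtonii the gap is 177 bases and YD132_YEAST (TBIG003551) lay at 0.02 (adjusted p = 0.984). Whether the counting used strand is not stated, so reads of these facing genes cannot be told apart, and their part in the rise of YD132_YEAST was not tested. UTP8, a ribosome biogenesis gene, lies 364 bases after RHR2 in H. burtonii (TBIG004429) and rose there by 2.21, 1.82 and 1.37 at 5, 15 and 30 min. Its level there was low, with means of 4.88 FPKM at 0 min and 13.7 at 30 min. RPL25, a ribosomal protein gene on the other side (TBIG004427), was also called higher at 5 min in H. burtonii (3.45, SE 1.03, adjusted p = 0.0480). At 15 and 30 min it stood at 2.19 and 1.64 (SE 1.03 each) and was not called. In H. pseudoburtonii RPL25 (TBIG000988) was not called at 5, 15 or 30 min. UTP8 there lies 1229 bases after RHR2 (TBIG000990), and it was called higher at 15 min (1.29) and not at 5 or 30 min (1.00 and 0.04). PCD1 was called higher at 30 min in H. pseudoburtonii (TBIG004672, 2.54) and not in H. burtonii (TBIG000227, -0.39). In H. pseudoburtonii its level was low, with means of 5.51 FPKM at 0 min and 34.0 at 30 min. MET32, named for a regulator of sulfur amino acid genes, was called higher in H. pseudoburtonii (TBIG002497, 1.23) and lower in H. burtonii (TBIG005903, -2.78) at 30 min.

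Other genes of glycerol metabolism were taken from lists written by name, and are given as counts and as the list's median change relative to that of all genes. At 30 min 25.8 percent of all genes were called higher and 9.69 percent lower in H. pseudoburtonii, and 37 percent higher and 11.1 percent lower in H. burtonii, and the counts are to be read against these shares. Names of further synthesis isoenzymes (GPD1, GPD2, GPP1, GPP2 and HOR2) matched 0 genes in either table. Of genes that use glycerol or dihydroxyacetone, 0, 1 and 5 of 7 were called higher in H. pseudoburtonii at 5, 15 and 30 min, with 0 lower. In H. burtonii 1, 5 and 5 of 6 were called higher, with 1 lower at 5 and at 30 min, not the same gene. At 5 min it was GUT1 (TBIG004613, -0.61) and at 30 min dak1 (TBIG004649, -1.24). The gene dak1 had been called higher at 5 and 15 min (1.43 and 1.02), from a mean of 15.1 FPKM at 0 min. With median-ratio scaling 3 of 6 tested genes were called higher at 30 min in H. pseudoburtonii and 4 of 6 in H. burtonii. The glycerol kinase gene GUT1 rose at 30 min in both, by 2.88 in H. pseudoburtonii (TBIG001175) and 1.26 in H. burtonii (TBIG004613). So did gut2, the mitochondrial dehydrogenase that oxidises glycerol 3-phosphate, by 0.99 in H. pseudoburtonii (TBIG004688), where median-ratio scaling ended the call (0.59), and by 2.16 in H. burtonii (TBIG000244). Of the H. burtonii glycerol dehydrogenase genes named GCY1, TBIG001529 rose by 7.51 at 30 min, from a mean of 16.8 FPKM at 0 min. The more abundant TBIG001530 rose by 2.80, from 895 FPKM. GCY1 of H. pseudoburtonii (TBIG000394) averaged 1.46 FPKM at 30 min and was not called (0.38). There the largest rise of the list was that of YPR1 copy TBIG000392, at 4.43, from 12.7 FPKM. The more abundant YPR1 copy TBIG000393 rose by 0.69, from 454 FPKM, a call lost with median-ratio scaling (0.29). The list's median at 30 min was 0.60 above that of all genes in H. pseudoburtonii and 1.16 above it in H. burtonii.

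Of transport genes, 5 of 8 were called higher and 0 lower at 30 min in H. pseudoburtonii, and 0 higher and 3 lower of 7 in H. burtonii. These calls fell on genes not matched between the species. GUP1 was called in H. pseudoburtonii (1.47) and not in H. burtonii (-0.40). AQY1 was called in H. burtonii and not in H. pseudoburtonii (-0.25), and the STL1 copies were not matched here. At 5 and 15 min 0 and 3 were called higher with 1 lower each time in H. pseudoburtonii, and 1 and 3 higher with 1 and 2 lower in H. burtonii. Most of these genes are named STL1, after a glycerol importer of Saccharomyces cerevisiae. In H. pseudoburtonii the copy TBIG004269 averaged 1064 FPKM at 30 min against 7.52 at 0 min (7.03, SE 0.40), and TBIG004272 averaged 2932 against 423 (2.79, SE 0.16). In H. burtonii the STL1 copies TBIG002605 and TBIG002606 fell by 4.37 (SE 0.25) and fell by 1.32 (SE 0.30) at 30 min. At 15 min the STL1 copies TBIG002606 (1.72), TBIG002607 (2.39) and TBIG005322 (0.79) had been called higher there. TBIG002605 (-1.83) and AQY1 (-0.67) were called lower at 15 min. The most abundant H. burtonii STL1 copy, TBIG005317, averaged 1254 FPKM at 30 min against 1432 at 0 min and was not called (-0.19, adjusted p = 0.313), nor were TBIG005322 (-0.04) and TBIG002607 (-0.48). AQY1 (TBIG005649), an aquaporin gene, fell by 1.76 in H. burtonii at 30 min (SE 0.20). With median-ratio scaling 5 were called higher and 1 lower in H. pseudoburtonii, and 0 higher and 6 lower in H. burtonii, where TBIG005317 and TBIG005322 were then among those called. With quantile scaling the counts were 3 higher and 1 lower in H. pseudoburtonii, and 0 higher and 4 lower in H. burtonii. The list's median relative to all genes was 1.59 in H. pseudoburtonii and -1.04 in H. burtonii. The difference between the species was not tested for these lists.

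Glycolytic genes supply the dihydroxyacetone phosphate that GPD uses or compete for it. Of those from hexose to triose phosphate, 6 of 6 were called lower at 5 min in H. pseudoburtonii, 5 at 15 min and 2 at 30 min, with 1 higher at 30 min, and 0, 5 and 6 of 7 were called lower in H. burtonii, with 0 higher. In H. pseudoburtonii at 30 min the count called lower was 5 with median-ratio and 1 with quantile scaling. TPI1, whose enzyme interconverts the triose phosphates, fell by 0.77 at 30 min in H. pseudoburtonii (TBIG001641, SE 0.16), a call lost with quantile scaling (-0.08), and fell by 0.77 in H. burtonii (TBIG000922, SE 0.19). PFK1, a subunit of phosphofructokinase, stood at -1.24 in H. pseudoburtonii (TBIG000814) and -2.60 in H. burtonii (TBIG002706), called lower in both. From triose phosphate to ethanol, 9, 8 and 8 of 13 genes were called lower in H. pseudoburtonii, with 0, 1 and 2 higher, and 4, 8 and 11 of 15 in H. burtonii, with 1, 4 and 3 higher. The list's median at 30 min relative to all genes was -0.72 in H. pseudoburtonii and -2.31 in H. burtonii from hexose to triose phosphate, and -1.37 in H. pseudoburtonii and -2.14 in H. burtonii from there to ethanol. Of the glyceraldehyde-3-phosphate dehydrogenase genes of H. pseudoburtonii, TDH1 copy TBIG004457 fell by 4.80 at 30 min. The more abundant TDH1 copy TBIG005698 averaged 5305 FPKM at 30 min against 9802 at 0 min (-0.89), a call lost with quantile scaling (-0.42). The gene of that enzyme named GPD (TBIG000650) stood at 0.46 and was not called, except with quantile scaling (0.85). In H. burtonii TDH1 (TBIG004709) fell by 4.72, and the genes of that enzyme named GPD stood at -4.54 (TBIG004708) and -0.65 (TBIG002932), both called lower, the second not with quantile scaling (0.45). ADH1, for alcohol dehydrogenase, stood at -2.90 in H. pseudoburtonii (TBIG000796) and -5.17 in H. burtonii (TBIG002724), called lower in both. Called higher at 30 min was ENO1, which encodes an enolase, in H. pseudoburtonii (TBIG003084, 2.17) and in both H. burtonii copies (TBIG003526, 3.91, and TBIG000563, 3.37). Its means at 0 min were 75.2 FPKM in H. pseudoburtonii and 78.9 and 11.7 in H. burtonii. The more abundant enolase gene ENO2 was called lower at 30 min in H. pseudoburtonii (TBIG003295, -1.71, from 6383 FPKM) and H. burtonii (TBIG004957, -2.53, from 10711 FPKM). ADH3 was called higher at 30 min in H. pseudoburtonii (TBIG000398, 1.45) and lower in H. burtonii (TBIG001526, -5.17). The pyruvate decarboxylase gene PDC1 was called higher in H. burtonii (TBIG003252, 3.39) and not called in H. pseudoburtonii (TBIG002099, 0.73). The further STL1, GCY1, YPR1, TDH1 and ENO1 copies were named after their values were seen. So were ENO2, dak1, ADH3, PDC1 and the GPD-named glyceraldehyde-3-phosphate dehydrogenase genes. At 5 min 6 of 6 and 9 of 13 genes of these lists were called lower in H. pseudoburtonii, when 4.55 percent of all tested genes were. The 9 include the glyceraldehyde-3-phosphate dehydrogenase gene named GPD (TBIG000650, -1.07). Of the 4 members 0 were called there at 5 min. RHR2 beside UTP8 lay at -0.60, RHR2 beside YD132_YEAST at 0.79, GPD beside PCD1 at -0.38 and GPD beside SET2 at -0.54.

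Of genes that pass glycerol 3-phosphate into lipids, 0, 0 and 1 of 8 were called higher in H. pseudoburtonii (SLC1, 0.75 at 30 min and not called with median-ratio scaling) and 1 lower at each time (ALE1, -1.15 at 30 min), and 0, 1 and 2 of 8 higher in H. burtonii, with 2 lower at 5 min. The H. burtonii count at 30 min was 1 under both other scalings. The list's median at 30 min relative to all genes was -0.12 in H. pseudoburtonii and -0.25 in H. burtonii. Genes of the Hog1 pathway and its transcription factors were called higher in 1, 4 and 10 of 15 cases in H. pseudoburtonii, with 1 lower at 5 min, and in 2, 7 and 9 of 14 in H. burtonii, with 1 lower at 30 min. With median-ratio scaling the 30 min counts were 7 higher and 1 lower in H. pseudoburtonii and 3 of 14 higher and 1 lower in H. burtonii. The list's median at 30 min was 0.95 above that of all genes in H. pseudoburtonii and 0.28 above it in H. burtonii. STE50, an adaptor of the pathway's kinase cascade, rose at 30 min by 2.56 in H. pseudoburtonii (TBIG005094) and 2.12 in H. burtonii (TBIG000086). The phosphatase gene PTP3 rose by 3.11 in H. pseudoburtonii (TBIG001890) and 1.74 in H. burtonii (TBIG002563). The stress transcription factor gene MSN4 rose by 2.46 in H. pseudoburtonii (TBIG002722) and fell by 2.17 in H. burtonii (TBIG005423), a difference that was not tested. Its level was low, with means of 2.81 FPKM at 0 min and 19.9 at 30 min in H. pseudoburtonii. In H. burtonii the means were 39.6 and 8.04 FPKM.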

How the data were processed

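The authors deposited FPKM, with a value for every gene in every library, kept apart by species and without counts. Tools named per the submitters' processing notes are Cufflinks 2.2.1, TopHat2 2.1.1, FastQC 0.11.8 and CASAVA 1.8.2. Settings, build and gene models were not given in the sources used here. Depth per library is therefore known only roughly, and no counting interval is given.

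FPKM were turned into log2(FPKM + 1). A gene was tested if 2 or more of its 8 libraries reached 1 FPKM, 5798 in H. pseudoburtonii and 6047 in H. burtonii. Each species had 1 limma fit (limma 3.58.1 in R 4.3.3, data.table at 1.17.8) with 1 mean per time and an intensity trend for the variances, and p-values were adjusted over all tested genes. Comparisons against 0 min share the 0 min libraries. For the species difference, FPKM were summed over the copies of RHR2, of GPD and of every other name (3849 tested), and the interaction was tested over all 16 libraries. A second fit, chosen after the data were seen, paired single genes by Swiss-Prot accession or else name found once in each species, and the RHR2 genes by neighbourhood (3356 tested). Tables and figures were made with matplotlib 3.10.9, numpy 2.4.6 and pandas 2.3.3 under Python 3.11.15. The fits were tested on simulated data.

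Named genes are all members, the 3 genes of nearest course to each member called against 0 min, the gene on each side of a member, and up to 4 genes per list by change at 30 min. The text leaves some out. Members and lists were chosen with earlier results of these data known, so lists are given as counts without a test. Alternatives were other pseudocounts, filters and scalings, no trend, a replicate block, summed copies and each library left out in turn. Lists were also counted at 30 min under both scalings, an alternative chosen after the data were seen.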

Additional observations from a re-analysis of the deposited data

Results flagged for a closer look

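These results are listed because the change from 0 min differed between the species in limma's interaction contrast (H. pseudoburtonii minus H. burtonii, adjusted p under 0.05). For RHR2 they are the summed copies at 5 min (-2.21), 15 min (-1.003) and 30 min (-1.80), the gene beside UTP8 at 5 min (-2.28), and the gene beside YD132_YEAST at 15 min (-4.48) and 30 min (-5.18). For GPD they are the summed copies at 5 min (-1.38) and 30 min (0.99), the gene beside PCD1 at 5 min (-1.50) and 30 min (1.17), and the gene beside SET2 at 5 min (-0.93) and 15 min (-0.82). Estimated depth moved with time in opposite ways in the species, with the 0 min libraries the deepest in H. pseudoburtonii (0.960 and 1) and the shallowest in H. burtonii (0.540 and 0.466), and its part in these differences was not tested. Groups of 2 libraries are too small to look for a library far from the others.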

How the results depend on the processing

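Of the comparisons of members recomputed under other settings, 1018 kept their direction and side of the threshold, 23 passed it newly, 54 no longer passed and 23 turned sign. Many of the kept directions were fixed in advance. Leaving out a library outside a comparison, or altering only the filter or the variance trend, leaves the change itself as it was. Only the adjusted p can move there. No filter, a filter at 10 FPKM and a pseudocount of 0.1 changed none. Pairing by accession or name alone leaves out the RHR2 pairs and keeps the GPD pairs as they were. Its 6 GPD comparisons could therefore hardly change, and it is no check on the pairing of the RHR2 genes. The cause of the changes below was not tested, except that summed copies follow the more abundant copy by construction. With a pseudocount of 10, RHR2 beside YD132_YEAST in H. pseudoburtonii was called at 30 min (1.68) and the species difference of GPD beside SET2 at 15 min was lost (-0.79). Median-ratio scaling called H. pseudoburtonii GPD beside SET2 at 5 min (-0.67) and turned it at 30 min (-0.0501). It also turned H. burtonii RHR2 beside UTP8 at 30 against 15 min (-0.044), H. burtonii GPD beside SET2 at 15 min (-0.23) and the 15 min species difference of RHR2 beside UTP8 (0.063), and lost those of summed RHR2 (-0.75) and GPD beside SET2 (-0.57) at 15 min. Quantile scaling called H. pseudoburtonii RHR2 beside UTP8 at 30 against 15 min (1.14), H. burtonii GPD beside PCD1 at 15 against 5 min (0.87) and the 30 min species difference of RHR2 beside UTP8 (0.94). It lost H. pseudoburtonii GPD beside SET2 at 15 min (-0.57) and the species differences of summed RHR2 at 15 min (-0.77) and of GPD beside SET2 at 5 and 15 min (-0.82 and -0.68), and turned H. burtonii RHR2 beside UTP8 at 15 against 5 min (0.013) and its 15 min species difference (0.028). Both scalings move the median change of all genes at 30 min, to 0.01 and -0.07 in H. pseudoburtonii and to 0.07 and 0.07 in H. burtonii. With median-ratio scaling 156 genes were called higher and 332 lower at 5 min and 468 and 553 at 15 min in H. pseudoburtonii, against 242 and 264 and 574 and 452 unscaled, and 706 and 743 at 15 min in H. burtonii, against 1379 and 419. Without a variance trend, GPD beside SET2 lost its H. pseudoburtonii call at 15 min (-0.69) and its species differences at 5 and 15 min (-0.93 and -0.82).

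The labels number 2 libraries at each time. Deviations of same-numbered libraries correlated at -0.092 to 0.038 in H. pseudoburtonii and -0.164 to 0.459 in H. burtonii, with the highest between 0 and 15 min. The main fits used no replicate block, a choice that these values do not settle for H. burtonii. A replicate block ended the calls of GPD beside SET2 in H. pseudoburtonii at 15 min (-0.69) and in the species difference at 15 min (-0.82), and changed no other call of a member.

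With the copies of a name summed, H. pseudoburtonii RHR2 changed by -0.58, 1.35, 2.05, 1.93 and 0.70 at 5, 15 and 30 min, 15 against 5 min and 30 against 15 min, the last called. H. pseudoburtonii GPD changed by 0.92 and 2.01 at 15 and 30 min and by 1.36 at 15 against 5 min, unlike its SET2 copy. H. burtonii RHR2 changed by 1.63 at 5 min, 0.72 at 15 against 5 min and 1.496 at 30 against 15 min. H. burtonii GPD changed by 0.94, 1.43 and 1.02 at 5, 15 and 30 min and by 0.49 at 15 against 5 min.

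Leaving out each library in turn, H. pseudoburtonii RHR2 beside UTP8 ranged over -0.93 to -0.27 at 5 min, 1.23 to 1.47 at 15 min and 0.63 to 0.77 at 30 against 15 min. H. pseudoburtonii RHR2 beside YD132_YEAST ranged over -0.38 to 1.95 at 5 min, -0.20 to 2.13 at 15 min, 1.38 to 3.71 at 30 min and -0.71 to 1.07 at 15 against 5 min. H. pseudoburtonii GPD beside SET2 ranged over -0.74 to -0.64 at 15 min, -0.32 to 0.029 at 15 against 5 min and 0.99 to 1.09 at 30 against 15 min, and GPD beside PCD1 over 0.99 to 1.21 in that last step. H. burtonii GPD beside PCD1 ranged over 1.07 to 1.18 at 5 min and 0.38 to 0.87 at 15 against 5 min, and GPD beside SET2 over -0.11 to 0.38 at 15 min and -0.41 to 0.078 at 30 min. Species differences ranged over -1.14 to -0.87 for summed RHR2 at 15 min, -0.49 to 1.84 for RHR2 beside YD132_YEAST at 5 min and 0.92 to 1.43 for GPD beside PCD1 at 30 min. For GPD beside SET2 they ranged over -1.17 to -0.68, -1.06 to -0.58 and 0.28 to 0.76 at 5, 15 and 30 min. A time left with 1 library is assumed to vary like the others. Without counts, the precision of low values such as those of RHR2 beside YD132_YEAST in H. pseudoburtonii is known only roughly.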
